A study of Mus musculus with 4 samples.

Results

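Complex I (NADH:ubiquinone oxidoreductase) is the entry enzyme of the mitochondrial respiratory chain, and its genes were taken here as every entry of the expression tables whose symbol begins with Nduf, together with mt-Nd4. This gave 41 of the 27189 entries of each library, of which 39 were subunits and 2 were assembly factors. The assembly factors were Ndufaf1 and Ndufa12l, an older symbol for the gene that RefSeq names Ndufaf2. The symbol Ndufa3 had 2 entries, so that the 41 entries were 40 genes.

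The complex has a peripheral arm in the matrix and a membrane arm in the inner mitochondrial membrane. The N module at the tip of the peripheral arm oxidizes NADH, the Q module below it passes the electrons along iron-sulfur clusters to ubiquinone, and the membrane arm pumps protons. Core subunits carry out the catalysis, accessory subunits surround them, and assembly factors help to build the complex without remaining in it. Motor neurons, with their long axons, depend strongly on oxidative phosphorylation, and altered mitochondria are a known feature of SOD1-linked ALS.

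RNA came from large motor neurons of the ventral horn of transgenic C57BL/6J x SJL/J mice at 3 months of age, whose cell bodies were picked by laser from Azure B stained spinal cord sections, 3000 to 4000 from each mouse. The 2 wild-type libraries were from mice of strain 592, which carry human SOD1 fused to YFP (wild-type SOD1-YFP). The other 2 libraries, called G85R, were from mice of strain 737, which carry the same fusion with the G85R mutation (G85R SOD1-YFP). Both transgenes are genomic fragments of human SOD1, which no promoter of a single cell type drives, and each genotype is 1 transgenic strain, with many more transgene copies in strain 737 than in strain 592 by the study's account, so that the mutation, the copy number, the transgene insertion and the strain cannot be told apart. Each library was 1 mouse, and G85R cell bodies with large aggregates were left out of the capture.

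The unit is RPKM, reads per kilobase of transcript scaled by the mapped reads of the library, and 1 read corresponded to a median of 0.0195 to 0.0226 RPKM per gene. An estimated 21560318 to 25186594 reads per library fell on genes. All 7 motor neuron markers were found in each library, with a summed level of 2455 to 2710 RPKM in wild-type and 2194 to 2558 RPKM in G85R. The summed markers of astrocytes were at 441 to 447 RPKM in wild-type and 527 to 615 RPKM in G85R (6 of 6 found), those of oligodendrocytes at 807 to 860 and 786 to 1027 RPKM (6 of 6), those of microglia at 15.1 to 17.0 and 18.4 to 38.3 RPKM (7 of 7), and those of endothelium at 8.58 to 9.54 and 7.18 to 7.38 RPKM (5 of 5). The red blood cell markers that were found (3 of 5, with 1 entry of Hba-a2 listed at 0 in each library) summed to 2.31 to 2.72 RPKM in wild-type and to 12.7 to 13.5 RPKM in G85R. The part of these other cells in the values below was not tested, and in captured tissue a different mix of cells and a different RNA level per cell cannot be told apart.

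Genotypes were compared with limma on the log2 scale after adding a pseudocount of 0.1 to each RPKM, for 11530 genes whose RPKM averaged 1 or more. Of the complex I entries, 39 were tested, 37 subunits and both assembly factors. A gene was called when its p, after Benjamini-Hochberg adjustment over all tested genes, was under 0.05. Across all tested genes 0.642% were called, and 0.269% were called higher in G85R.

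Complex I RNAs were abundant in these motor neurons, and the subunits differed little between the genotypes. Of the 37 tested subunits, limma called 0, and 0 had an unadjusted p under 0.05, against 11.0% of all tested genes. The one member called was the assembly factor Ndufaf1, which was 1.98-fold higher in G85R. A subunit deposited under the older symbol 1500032D16Rik, which RefSeq names Ndufv3 and which the choice by symbol therefore missed, was also called, 1.54-fold higher in G85R.

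**Figure D1:**
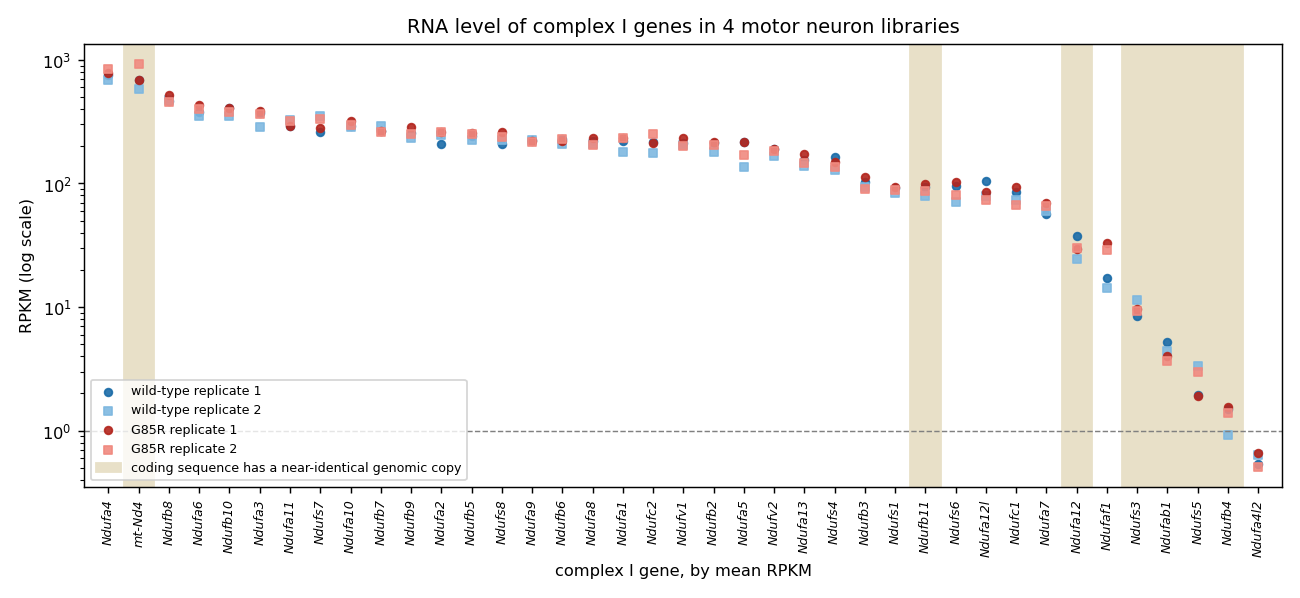
RPKM (log scale) of complex I entries with a value above 0, ordered by mean RPKM, with 1 point for each of the 2 wild-type and 2 G85R libraries. Shaded columns are genes whose coding sequence has a near-identical copy elsewhere in the genome, and the dashed line is the mean RPKM of 1 required for testing. Most genes lie between 63.1 and 772 RPKM with the 4 libraries close together, while Ndufaf1 has both G85R points above both wild-type points.

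Ndufaf1 encodes the assembly factor also known as CIA30, which acts while the membrane arm is put together. Its gene is at chr2:119481182-119488563 on the minus strand of NCBIM37 (mm9). It was measured at 17.0 and 14.2 RPKM in wild-type replicates 1 and 2 and at 33.0 and 28.9 RPKM in G85R replicates 1 and 2. Both G85R libraries were above both wild-type libraries, with a gap between the genotypes wider than the spread within either.

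The mean of Ndufaf1 was 15.6 ± 2.00 RPKM (SD, n = 2) in wild-type and 30.9 ± 2.92 RPKM (SD, n = 2) in G85R. The log2 difference was 0.98 with a standard error of 0.14 and an adjusted p of 0.0400 by limma. Each G85R library showed it separately, at 1.08 and 0.89 above the wild-type mean on the log2 scale. The values rested on an estimated 678 and 601 reads in wild-type and 1200 and 1115 reads in G85R.

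The call of Ndufaf1 was close to the threshold, and it was lost with a minimum mean RPKM of 5, with no filter, with quantile normalization and with eBayes without trend, at adjusted p values of 0.0625, 0.444, 0.0583 and 0.0946. Leaving out wild-type replicate 2 gave an adjusted p of 0.0514 and leaving out G85R replicate 1 gave 0.0545, while without wild-type replicate 1 it was 0.0172 and without G85R replicate 2 it was 0.0109, the remaining single library being assumed to vary like the other genotype. An exact permutation test of 2 libraries against 2 cannot give a p below 0.333. The log-linear likelihood ratio test, which assumes Poisson variation, gave an unadjusted p of 0.00117 for Ndufaf1 and an adjusted p of 0.305 over all 27189 genes. This test treats RPKM as counts, so that its p depends on the unit and on the level of a gene.

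Ndufaf1 was set against the median RPKM, in the same library, of the subunits without a genomic copy of coding sequence. It was at 7.68% and 6.59% of this median in the wild-type libraries and at 14.2% and 12.6% of it in the G85R libraries. The assembly factor thus stayed far below this median in every library, and the ratio was higher in both G85R libraries.

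Ndufa12l (Ndufaf2), a paralog of the N module subunit Ndufa12 that acts late in assembly, was measured at 104.6 and 78.5 RPKM in wild-type and at 85.3 and 73.6 RPKM in G85R. The genotypes overlapped, and the wild-type replicates lay further apart than the genotype means. Its log2 difference was -0.19 with a standard error of 0.16 and an adjusted p of 0.736, and without wild-type replicate 1 it was 0.01.

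Ndufv3 (1500032D16Rik) is an accessory subunit of the N module, at chr17:31657060-31668266 on the plus strand of NCBIM37. It was measured at 134.7 and 142.4 RPKM in wild-type and at 218.2 and 208.5 RPKM in G85R. The G85R libraries stood well above the wild-type libraries, and the replicates of each genotype were close to each other.

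The mean of Ndufv3 was 139 ± 5.41 RPKM (SD, n = 2) in wild-type and 213 ± 6.88 RPKM (SD, n = 2) in G85R, a log2 difference of 0.62 with a standard error of 0.09 and an adjusted p of 0.0488 by limma. Without any single library the adjusted p was between 0.0621 and 0.133, so that the limma call needed all 4 libraries, and it was lost under 5 of the other settings at 0.0658 to 0.336. The likelihood ratio test also called 1500032D16Rik, at an adjusted p of 1.7e-05 over all genes. In wild-type it was at 60.7% and 66.0% of the subunit median and in G85R at 93.6% and 90.9%, which placed Ndufv3 below the typical subunit in wild-type and near it in G85R.

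**Figure D2:**
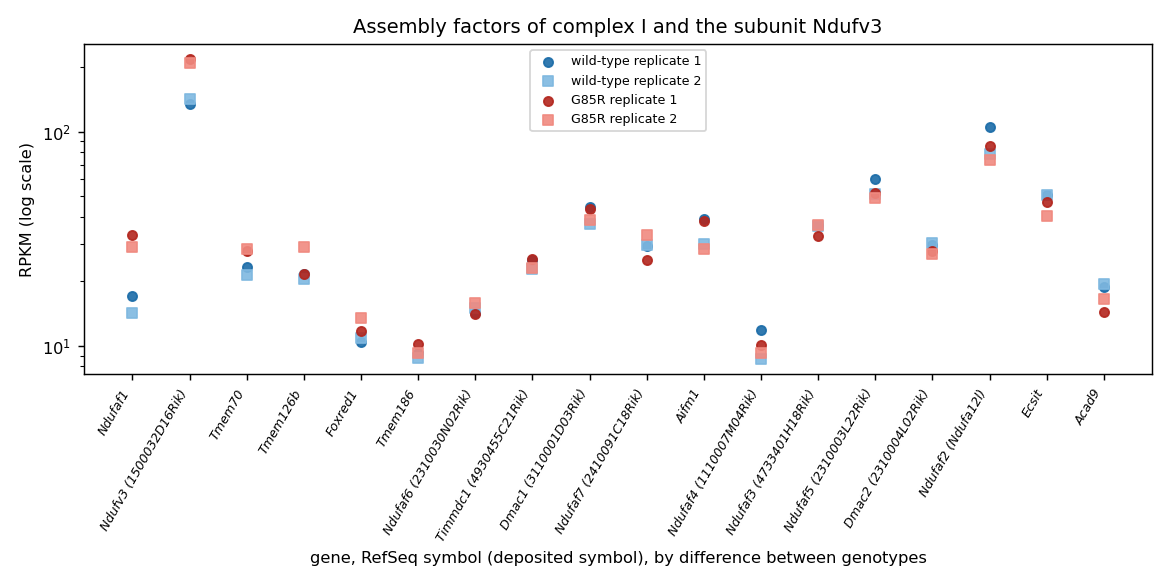
RPKM (log scale) of tested complex I assembly factors and of Ndufv3 in the 2 wild-type and 2 G85R libraries, ordered from the largest positive to the largest negative log2 difference. Ndufaf1 and Ndufv3 have the G85R points furthest from the wild-type points. The other genes have them closer together, without overlap in some such as Tmem70 and Acad9, or mixed.

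Other assembly factors were looked up from a list of those deposited under other symbols, with RefSeq synonyms. Of 18 assembly factor entries in all, 17 were tested, 1 was called, 8 had a higher mean in G85R, and the median log2 difference was -0.04, against -0.02 for all tested genes. Ndufaf3 to Ndufaf7, deposited under older symbols, were not called. Tmem70, which takes part in building the membrane arm and ATP synthase, was measured at 23.3 and 21.5 RPKM in wild-type and 27.6 and 28.4 RPKM in G85R, with an adjusted p of 0.341. Acad9, a partner of Ndufaf1 in the assembly complex of the membrane arm, was measured at 18.7 and 19.4 RPKM in wild-type and 14.4 and 16.6 RPKM in G85R, with an adjusted p of 0.423. Neither pair of genotypes overlapped, and the G85R libraries were on the high side for Tmem70 and on the low side for Acad9. Such a lack of overlap was near the share over all genes. Of the 17 tested assembly factors, both G85R libraries were above both wild-type libraries for 4, against 17.3% of all tested genes. Both were below for 3, against 23.9%. Nubpl, which delivers iron-sulfur clusters to the complex, was below the filter at 0.47 to 1.13 RPKM.

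The levels of the 30 tested subunits without a near-identical genomic copy of coding sequence ranged from 63.1 RPKM for Ndufa7 to 772 RPKM for Ndufa4. Their median was 221 RPKM, while the median of all tested genes was 10.1 RPKM. The subunits summed to 8172 and 7596 RPKM in wild-type and to 8590 and 8506 RPKM in G85R. Both G85R sums exceeded both wild-type sums. The sums over all genes had the same order, at 387126 and 388781 RPKM in wild-type and 392209 and 393780 RPKM in G85R.

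Of the 37 tested subunits, 29 (78.4%) had a higher mean in G85R, against 45.3% of all tested genes. This count depended on scaling, with 23 of 37 higher after quantile normalization, 24 after centring within bins of gene length and 30 after rescaling by the median ratio. It also depended on 1 library, with 19 of 37 higher without wild-type replicate 2. The median log2 difference of the subunits was 0.06, against -0.02 for all tested genes, and ranged from -0.32 for Ndufab1 to 0.34 for mt-Nd4. The median SD of single genes within a genotype was 0.13 on the log2 scale for the subunits and 0.13 for all tested genes, and the SD of the subunit median between replicates was 0.0813, larger than the median difference. The median was 0.15 without wild-type replicate 1 and 0.015 without wild-type replicate 2. Both G85R libraries lay above both wild-type libraries for 9 subunits, against 17.3% of all tested genes, and below both for 2 subunits, against 23.9% of all tested genes.

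Each G85R library was also taken alone. In G85R replicate 1 the median subunit was 0.12 above the wild-type mean on the log2 scale, and 29 of 37 subunits were above it, against 49.2% of all tested genes. In G85R replicate 2 the median was 0.03, and 23 of 37 were above, against 42.9%. The wild-type libraries themselves lay 0.07 above and 0.07 below their mean for the median subunit, so that G85R replicate 2 differed from the wild-type mean by less than either wild-type library did.

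Transcript length moved with this pattern. Of the 37 tested subunits, 36 were in the 3 shortest of 10 bins of tested genes, by the length implied by the RPKM of 1 read. Tested genes of these 3 bins outside the complex had a higher mean in G85R in 54.3% and a median log2 difference of 0.02. The part of length in the subunit values was not tested beyond the centring given above. The implied length did not follow coding length in every gene. Ndufs1, with 2184 coding bases, was in bin 2 from the shortest, and Ndufv1, with 1395, was in bin 3.

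**Figure D3:**
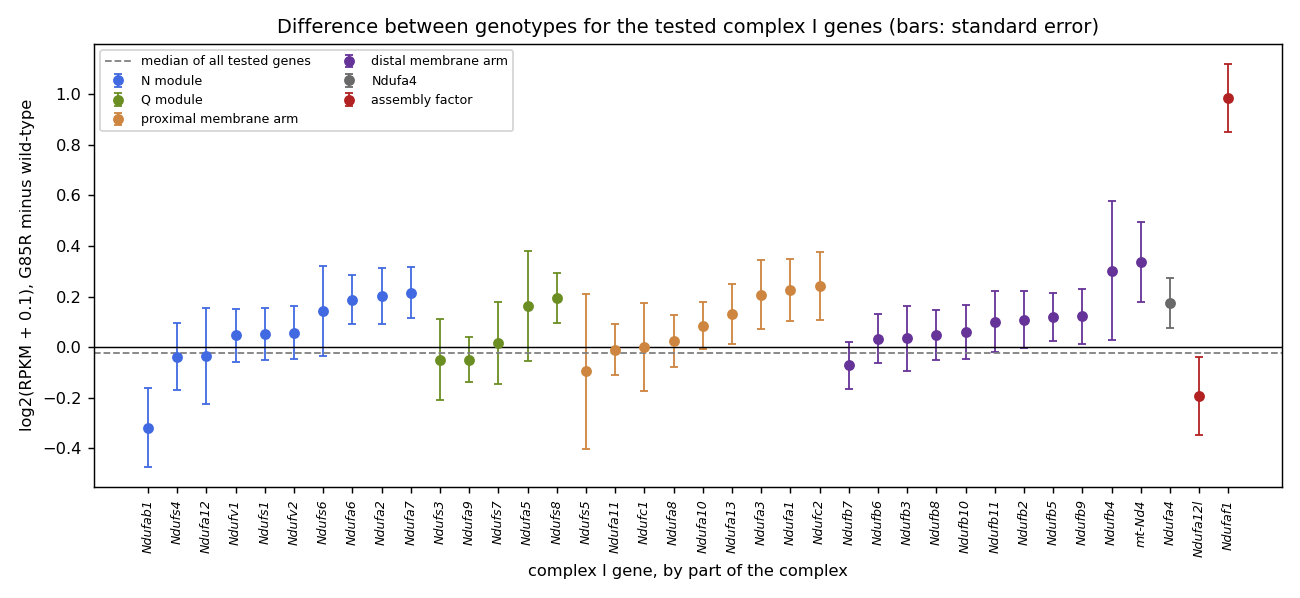
Difference in log2(RPKM + 0.1), G85R minus wild-type, of tested complex I entries, grouped by part of the complex, with bars for the standard error of limma. The dashed line is the median of all tested genes, -0.02. Most subunits lie slightly above 0 with bars that reach or approach it, and Ndufaf1 stands apart at 0.98.

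In the N module, 10 subunits were tested and 7 of them were on average higher in G85R. The median log2 difference was 0.06. Among its core subunits, Ndufv1, which binds NADH and FMN, was at 212.8 and 206.2 RPKM in wild-type and 233.0 and 200.9 RPKM in G85R. Ndufv2, which holds an iron-sulfur cluster beside it, was at 191.1 and 167.5 RPKM in wild-type and 190.1 and 182.2 RPKM in G85R. Ndufs1, the large iron-sulfur subunit, was at 91.9 and 83.9 RPKM in wild-type and 94.0 and 88.4 RPKM in G85R. For each of these the genotypes overlapped, and the log2 differences were 0.05, 0.06 and 0.05 with adjusted p values of 0.937, 0.919 and 0.924. RNA for Ndufs1 was thus less than for Ndufv1 or Ndufv2 in every library, although the proteins are present in equal number in the complex.

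In the Q module, 6 subunits were tested, 4 had a higher mean in G85R, and the median was 0.02. Ndufs7, which carries the last iron-sulfur cluster, was at 258.9 and 350.4 RPKM in wild-type and 279.7 and 332.0 RPKM in G85R. Ndufs8, which carries a pair of iron-sulfur clusters, was at 210.5 and 224.2 RPKM in wild-type and 260.9 and 237.2 RPKM in G85R. Ndufs8 was the one core subunit of the nucleus without overlap between the genotypes, with a log2 difference of 0.20, a standard error of 0.10 and an adjusted p of 0.539. For Ndufs7 the genotypes overlapped, at a log2 difference of 0.02.

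Over the 7 core subunits encoded in the nucleus, 6 had a higher mean in G85R and the median log2 difference was 0.05, with 0.10 for G85R replicate 1 and 0.01 for G85R replicate 2.

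In the proximal part of the membrane arm, 9 subunits were tested, 7 had a higher mean in G85R, and the median was 0.08. The accessory subunit Ndufc2 was at 216.1 and 176.0 RPKM in wild-type and 212.5 and 249.6 RPKM in G85R, with a log2 difference of 0.24 and an adjusted p of 0.586. Ndufa1, a small membrane subunit encoded on the X chromosome, was at 221.6 and 178.3 RPKM in wild-type and 233.4 and 231.4 RPKM in G85R, with a log2 difference of 0.22 and an adjusted p of 0.574. In both genes wild-type replicate 2 was the lowest library, and the wild-type replicates differed by more than the genotype means.

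In the distal part, which holds the Ndufb subunits and mt-Nd4, 11 subunits were tested, 10 had a higher mean in G85R, and the median was 0.10. Ndufb8, the most abundant of the Ndufb subunits, was at 463.0 and 475.3 RPKM in wild-type and 516.7 and 456.1 RPKM in G85R, with a log2 difference of 0.05. Ndufb7 was the one Ndufb subunit with a lower mean, at 265.9 and 289.7 RPKM in wild-type and 266.4 and 261.6 RPKM in G85R, a log2 difference of -0.07. Both genes had overlapping genotypes. The N module, Q module, proximal and distal medians in G85R replicate 1 were 0.13, 0.04, 0.14 and 0.14, and in G85R replicate 2 they were near 0, from -0.03 to 0.05.

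mt-Nd4 is a proton-pumping core subunit encoded by mitochondrial DNA, at chrM:10167-11544 on the plus strand of NCBIM37, and was the one mitochondrially encoded gene of the set. It was at 685.7 and 580.8 RPKM in wild-type and 687.8 and 923.7 RPKM in G85R. G85R replicate 1 was just above wild-type replicate 1, and G85R replicate 2 was higher than the other libraries. The log2 difference was 0.34 with a standard error of 0.16 and an adjusted p of 0.498. The likelihood ratio test, which does not use the spread between replicates, called mt-Nd4 at an adjusted p of 1.94e-07, and this was its one call among the 41 entries. It gave an unadjusted p under 0.05 with a higher mean in G85R to 8 subunits, and to 1.86% of all tested genes, and with a lower mean to 0 subunits, and to 1.08% of all tested genes. The test treats RPKM as counts, so for the same fold its p is lower at high RPKM. The median tested subunit was at 216 RPKM, against 10.1 RPKM for all tested genes, so these shares are not on an equal footing.

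Ndufa4, first described in complex I and since assigned to cytochrome c oxidase, was the most abundant member, at 760.6 and 690.4 RPKM in wild-type and 787.0 and 851.0 RPKM in G85R. Both G85R libraries were higher, with a log2 difference of 0.18, a standard error of 0.10 and an adjusted p of 0.585. Its paralog Ndufa4l2, known as a hypoxia-inducible gene, was near the lower limit at 0.54 and 0.64 RPKM in wild-type and 0.66 and 0.51 RPKM in G85R, and was not tested. The second entry of Ndufa3 was listed at 0 in all 4 libraries.

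Low values in the subunits went with near-identical genomic copies. The study counted mapped reads as those with a single place in the genome, and whether reads with several places entered the RPKM is not given in the sources used here. In all, 7 subunits had coding sequence that aligned elsewhere in NCBIM37 over at least 75 bases at 97% identity or more. The whole coding sequence of Ndufb4, Ndufs5, Ndufab1, Ndufs3 and Ndufb11 had such a copy, and their mean RPKM was 1.35, 2.55, 4.31, 9.67 and 89.3. The share was 89.8% for Ndufa12 (30.3 RPKM) and 63.6% for mt-Nd4 (719 RPKM). All other tested subunits had none in the coding sequence, and each was above 63 RPKM, so that the 5 lowest tested subunits all had copies. Ndufc1, Ndufb2 and Ndufa1 had copies only of transcript sequence outside the coding sequence, and they are counted as without a copy. RPKM of genes with copies are uncertain, since reads from gene and copy cannot be told apart where they do not differ.

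Stretches of 75 bases of coding sequence, about the length of a read, are shown for Ndufb4 and Ndufs3 because they show how close gene and copy are. That of Ndufb4 was found with 0 differences at chr15:73640088-73640162 on the minus strand of NCBIM37, within an alignment of 476 bases at 99.58% identity, so that 1 line stands for both. The copy of the Ndufs3 stretch lies at chr11:58206603-58206677 on the minus strand of NCBIM37, within an alignment of 883 bases at 98.53% identity, and capitals mark the 2 bases that differ.
Ndufb4 and copy: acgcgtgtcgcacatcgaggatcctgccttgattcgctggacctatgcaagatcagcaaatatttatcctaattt
Ndufs3: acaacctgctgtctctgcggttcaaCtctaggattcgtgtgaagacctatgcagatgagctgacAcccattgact
Ndufs3 copy: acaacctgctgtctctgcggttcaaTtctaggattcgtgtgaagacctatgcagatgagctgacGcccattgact

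Ndufs3, a core subunit of the Q module, was at 8.44 and 11.3 RPKM in wild-type and 9.60 and 9.30 RPKM in G85R. Ndufab1, the mitochondrial acyl carrier protein, was at 5.20 and 4.40 RPKM in wild-type and 4.01 and 3.65 RPKM in G85R, with both G85R libraries below both wild-type libraries and an adjusted p of 0.522. Ndufs5, an accessory subunit that faces the intermembrane space, was at 1.95 and 3.35 RPKM in wild-type and 1.91 and 2.98 RPKM in G85R. Ndufb4, an accessory subunit of the membrane arm, was at 1.51 and 0.92 RPKM in wild-type and 1.57 and 1.40 RPKM in G85R. For Ndufs3 and Ndufs5 the genotypes overlapped, and Ndufb4 had its lowest value in wild-type replicate 2. The 7 subunits with copies of coding sequence had a median log2 difference of -0.03, and 3 had a higher mean in G85R. The 30 tested subunits without such a copy had a median of 0.07, and 26 had a higher mean.

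The genes next to Ndufaf1 were examined after its value was known. Of 32 other tested genes that start within 1 Mb of Ndufaf1, 3 (9.38%) were called, and of 65 within 3 Mb, 5 (7.69%) were called, against 0.592% of the 10642 tested genes with a position. The called neighbors went in both directions. Gchfr, Exdl1 and Pla2g4e were lower in G85R, with log2 differences of -1.18, -1.73 and -1.99, and Ell3 and B2m were higher, with log2 differences of 1.67 and 1.77. Around Ndufv3, 0 of 15 tested genes within 1 Mb were called by limma and 1 of 67 (1.49%) within 3 Mb.

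**Figure D4:**
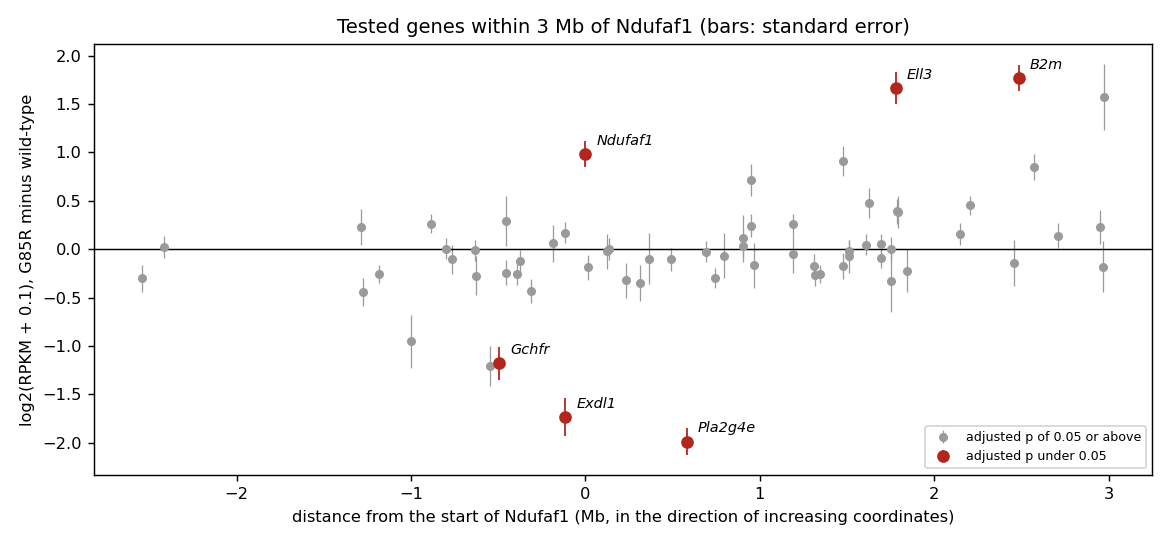
Difference in log2(RPKM + 0.1), G85R minus wild-type, of the tested genes that start within 3 Mb of Ndufaf1, against the distance from its start in Mb, with bars for the standard error. Red points are the called genes, Ndufaf1 and 5 others, which lie on both sides of 0 among genes with small differences.

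Promoters of the complex were searched in RefSeq sequence of GRCm38.p6, from 250 bases before to 50 bases after each start, on both strands. Of the 40 genes, 34 matched, with 36 windows. The NRF1 motif GCGCATGC was in 3 (8.33%) of these windows and in 2.71% of all 32851 windows, and the overlapping letters GCATGCGCA were in 5.56% and in 1.52% of all. The YY1 motif AAGATGG was in 7 windows (19.4%) and in 6.34% of all, and the longer form AAGATGGCG, which contains it, was in 5 (13.9%) and in 1.40%. The windows with the longer form were of Ndufa9, Ndufc1, Ndufs4, Ndufs6 and Ndufs7. The GABPA motif CCGGAAG was in 5 windows (13.9%) and in 8.86% of all, whereas its longer form CCGGAAGT was in 1 (2.78%) and in 3.89% of all. The SP1 motif GGGCGG was in 47.2% and in 35.7%, its longer form GGGGCGGGG in 16.7% and in 11.4%, the NF-Y motif CCAAT in 30.6% and in 37.4%, and the ESRRA motif TCAAGGTCA in 0 and in 0.423%. These matches are descriptions of letters, and binding was not measured.

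Upstream sequence of 60 bases is shown for Ndufaf1 and Ndufv3, the genes that were called, and for Ndufa6 and Ndufa8, subunits with the NRF1 letters. Capitals mark the GABPA letters in Ndufaf1 and the NRF1 letters, on the opposite strand, in Ndufa6 and Ndufa8, and none of the motifs was in the piece shown for Ndufv3. The pieces are chr2:119662835-119662894 (minus strand), chr17:31520055-31520114 (plus), chr15:82354341-82354400 (minus) and chr2:36049339-36049398 (minus) of GRCm38.p6.
Ndufaf1: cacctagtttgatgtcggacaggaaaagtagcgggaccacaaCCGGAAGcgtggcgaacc
Ndufv3: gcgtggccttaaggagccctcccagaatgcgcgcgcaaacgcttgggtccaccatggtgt
Ndufa6: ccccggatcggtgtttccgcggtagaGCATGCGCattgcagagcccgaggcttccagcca
Ndufa8: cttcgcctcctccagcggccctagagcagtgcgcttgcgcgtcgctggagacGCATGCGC

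Ndufa6, an accessory subunit of the N module, was at 378.2 and 348.6 RPKM in wild-type and 428.3 and 399.7 RPKM in G85R, and Ndufa8, of the proximal membrane arm, was at 222.5 and 208.6 RPKM in wild-type and 232.5 and 206.5 RPKM in G85R. Neither was called, and the genotypes overlapped for Ndufa8 and did not for Ndufa6.

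The other respiratory complexes were counted in the same way. limma called 0 of 4 tested genes of complex II and 0 of 6 of complex III. It called 0 of 11 of complex IV and 0 of 15 of complex V. Across all tested genes 0.642% were called, so that 0 calls among so few genes is near this share. An unadjusted limma p under 0.05 was found for 0, 0, 0 and 1 of them, against 11.0% of all tested genes. The adjusted likelihood ratio test also called 0 in each, and 62 of the 11530 tested genes. Their median log2 differences were 0.04, 0.02, 0.12 and 0.08, beside 0.06 for the subunits of complex I and -0.02 for all tested genes. A higher mean in G85R was found for 2, 4, 11 and 11 of their genes, against 45.3% of all tested genes.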

How the data were processed

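Gene expression was measured by RNA-seq in 4 libraries of polyA RNA. The authors mapped reads with Bowtie 0.12.3 (per the submitters' processing notes) to mm9 and a set of splice junctions, quantified genes with Cufflinks, and deposited 2 RPKM values per gene, the second after adding a read. The RPKM of 1 read is the difference of the deposited RPKM values, and gave the estimated reads and the relative length of a gene. Cufflinks divides reads among isoforms, so these are not counts, and no counting intervals were computed. The cluster identifier, transcript and Entrez columns served only to name genes.

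Libraries were grouped by genotype from their labels, 2 against 2, with no block. Log2(RPKM + 0.1) was fitted with lmFit and eBayes (trend on) of limma 3.58.1, under R 4.3.3, for genes whose RPKM averaged 1 or more, with Benjamini-Hochberg adjustment over all tested genes. The pseudocount makes folds of low genes too small. Because nothing but the labels distinguishes the mice, p-values measure the spread between these samples. As an alternative, a Poisson log-linear likelihood ratio test was applied to the rounded RPKM with 1 read added, over all 27189 genes. A Poisson model of RPKM depends on the unit, so its p values are not comparable between genes of different level.

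The genes were chosen by symbol, and these members, the lists of modules, assembly factors and markers, and the tests were chosen with earlier results of these data known. Genes given with full values were the nuclear core subunits, mt-Nd4, the Ndufaf genes, Ndufa4 and Ndufa4l2, the 3 highest and 3 lowest tested subunits, the 5 largest differences in each direction, any member called and those below the filter. The values of 1 gene of this rule are not reported here, and it stays in the counts and medians. Ndufv3, Tmem70, Acad9, Nubpl, Ndufa6, Ndufa8 and the neighbors of Ndufaf1 were named after their values were seen. Near-identical copies were searched with BLAST+ 2.17.0 in NCBIM37 with GENCODE transcripts. The alternatives were pseudocounts of 1 and 0.01, a minimum mean RPKM of 0.1, 5 or none, median ratio rescaling, quantile normalization, centring within 10 bins of gene length, a replicate block, robust eBayes, eBayes without trend, the likelihood ratio test, 1 entry per symbol, and leaving out each library. Leaving out subunits with copies of coding sequence was added after seeing the data. Python 3.11.15 with numpy 2.4.6, pandas 2.3.3, scipy 1.17.1 and matplotlib 3.10.9 was used for the rest.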

Additional observations from a re-analysis of the deposited data

How the results depend on the processing

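The calls of Ndufaf1 and Ndufv3 depended on the processing. The number of complex I entries called was 1 in the comparison reported and 0 with a minimum mean RPKM of 5, with no filter, with quantile normalization and with eBayes without trend, where the adjusted p of Ndufaf1 was 0.0625, 0.444, 0.0583 and 0.0946. The causes were not tested. The likelihood ratio test called 1 entry, which was mt-Nd4. Leaving out 1 library gave a subunit median of 0.015 to 0.150 and 19 to 30 subunits with a higher mean in G85R (19 without wild-type replicate 2). It gave 17 to 31 subunits without overlap in either direction, which by construction is easier to reach with 3 libraries. The share over all tested genes was not computed with a library left out, so these counts are not a result about the subunits. The median of the 2 assembly factors chosen by symbol was then 0.23 to 0.56. These were Ndufaf1 and Ndufa12l, which went in opposite directions with all libraries, at 0.98 and -0.19. The 17 tested assembly factors had a median of -0.04 with all libraries. The subunit median of 0.06 moved to between 0.03 and 0.08 under the other settings. The median of G85R replicate 1 stayed positive throughout, while that of G85R replicate 2 was -0.01 after quantile normalization and -0.04 to 0.09 with 1 library left out. The call of Ndufv3 (1500032D16Rik) was lost with a minimum of 5 (adjusted p 0.0658), no filter (0.336), quantile normalization (0.0694), length centring (0.0710), eBayes without trend (0.147) and each library left out.

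The log2 difference of some genes that were not called changed sign. After quantile normalization it was -0.0291 for Ndufs7 and -0.0066 for Ndufv1, and after length centring it was -0.0316 for Ndufs7. With 1 library left out the range was -0.40 to 0.0137 for Ndufa12l, -0.0241 to 0.63 for Ndufb4, -0.0407 to 0.14 for Ndufb8, -0.0119 to 0.12 for Ndufs1, -0.26 to 0.16 for Ndufs3, -0.47 to 0.28 for Ndufs5, -0.20 to 0.23 for Ndufs7, -0.0605 to 0.15 for Ndufv1 and -0.0379 to 0.15 for Ndufv2.

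With the replicate number as a block, 1 complex I entry was called, Ndufaf1 at an adjusted p of 0.000242, while the calls over all genes went from 74 to 527. The labels do not say what libraries of the same number share. The difference between replicates 1 and 2 correlated between the genotypes at 0.22 over tested genes and 0.47 over tested subunits, across genes that are not independent. Of 37 subunits, 27 were higher in replicate 1 in wild-type, 29 in G85R and 22 in both, and an overlap of this size was not tested. Over all tested genes, 49.4% were higher in replicate 1 in wild-type and 54.2% in G85R.

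Precision is limited by 2 libraries per genotype. The levels of subunits with genomic copies are uncertain, and a p above the threshold does not show that their levels are alike.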
